A study of Homo sapiens with 3 samples.

Results

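JUN, JUND, JUNB, MAF, CEBPB, IER2 and IER5 are short regulator genes whose coding sequence sits in 1 exon or nearly so. They were examined as a group in ribosome profiling data, in which the mRNA fragments that ribosomes shield from nuclease are sequenced. The 7 genes are a given list, selected on their few introns and on ribosome peaks in the 5′-UTR in these same lists, so their 5′-UTR numbers are a description and support nothing by themselves. A peak counted for the gene whose RefSeq transcript its annotation names, where that transcript maps to a gene name, and otherwise for the gene name of its row. Of 3621 genes with a peak in any sample, 6 of the 7 listed genes were among them. The vector list gave them 57 of its 11219 peaks (0.508%), the wild-type list 60 of 19920 (0.301%) and the G325E list 100 of 15680 (0.638%).

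HEK293T, a line derived from human embryonic kidney, had been transfected 24 h earlier. It received empty pCDNA3.1 (vector), DDX3X of wild-type sequence with a FLAG tag (wild-type), or FLAG-tagged DDX3X G325E, a missense form of this RNA helicase found in medulloblastoma (G325E). Transfection was transient and the endogenous gene was present in all 3 samples. There was 1 library per construct (no replicates), so no difference could be set against the spread between cultures and none was tested. Intervals below are 95% Wilson intervals that cover counting error only. Per the labels, all cells received harringtonine, which holds ribosomes that have just initiated, at 2 µg/ml for 90 s and then cycloheximide, which halts elongation, at 100 µg/ml. The study's methods name cycloheximide alone, and this was not settled here. The labels call the cell type neuronal, and 1 of 10 neuronal marker genes had a peak (TUBB3, with 8, 6 and 4 peaks in the vector, wild-type and G325E lists) and 5 of 6 filament genes did. These included the neuronal filament genes NEFL (7, 10 and 13 peaks) and NEFM (16, 19 and 33) as well as VIM (18, 20 and 19). KRT18 held 0, 11 and 0 peaks and KRT8 0, 1 and 0. INA, also a neuronal filament gene, held 0 in every list. DDX3X itself was listed with 0, 32 and 9 peaks in that order.

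JUN, JUND and JUNB are leucine zipper proteins of the AP-1 transcription factor, which binds DNA as JUN dimers or as JUN paired with FOS or ATF proteins. MAF and CEBPB belong to related basic leucine zipper families, and IER2 and IER5 are nuclear proteins induced soon after growth factor or stress signals. Immediate early genes are known for short transcripts with few introns and for mRNAs that turn over quickly, and JUN, MAF and CEBPB mRNAs carry long or GC-rich leaders. A ribosome scans such a leader from the cap before it initiates, and DDX3X is an RNA helicase that has been linked to initiation on structured leaders.

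The start codons are shown first, since the results turn on which side of them the peaks lie. Each sequence runs from 15 nt before the start codon for 30 nt in all, read from GRCh37, and the capitals mark the start codon.
JUN, chr1:59248728-59248757, minus strand: gtgacggactgttctATGactgcaaagatg
JUND, chr19:18392280-18392309, minus strand: cgggggaggcggaggATGgaaacacccttc
JUNB, chr19:12902571-12902600, plus strand: gcctgggccgcccggATGtgcactaaaatg
MAF, chr16:79633785-79633814, minus strand: ggcggcggcaggagaATGgcatcagaactg
CEBPB, chr20:48807556-48807585, plus strand: cgggcacccgcgttcATGcaacgcctggtg
IER2, chr19:13263986-13264015, plus strand: cgccgtcgagtcgccATGgaagtgcagaaa
IER5, chr1:181058024-181058053, plus strand: gtgcaggggaagcagATGgagttcaagctg
A peak covered the whole start codon of JUN in vector and wild-type, of IER2 in wild-type and G325E, and of MAF in G325E. In G325E, peaks also covered 2 bases of the JUND start codon and 1 base of that of IER5. The start codons of CEBPB and JUNB were under no peak in any list. The vector and wild-type lists each skip a peak number in the stretch around the MAF start codon, and the wild-type list does so around that of CEBPB.

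The lists give positions without a height, read count or score, so a peak says that coverage reached the authors' cut-off there and not by how much. Peaks carry running numbers in genomic order. The vector list skips 1952 numbers (14.8%), the wild-type list 3099 (13.5%) and the G325E list 0. Where a list skips numbers, a peak may have been called there and not kept. The skipped numbers that fall between the first and the last peak of a listed gene came to 16 in vector (7 in CEBPB, 7 in MAF and 2 in IER5) and to 11 in wild-type (4, 5 and 2), so they are given with the values of these genes. No number was skipped between the first and last peak of JUN or IER2. The lists carry no read depth, and the mapped read numbers of the libraries were not used here.

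**Figure D1:**
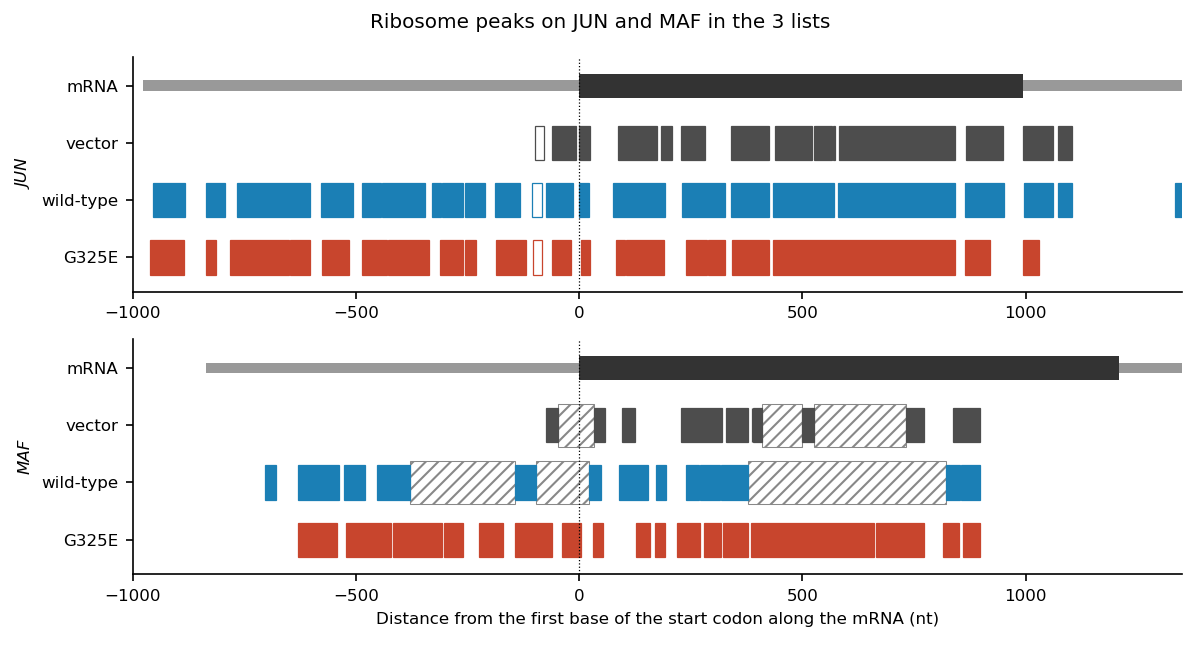
Peaks on the JUN and MAF mRNAs in the 3 lists, by distance from the first base of the start codon (nt). In the mRNA row the thick bar is coding sequence and the thin bar UTR. Filled boxes are peaks on the strand of the gene, open boxes peaks on the other strand, and hatched boxes stretches between peaks of the gene in which a list skips peak numbers. The JUN leader beyond 100 nt from the start codon is empty in vector and filled in wild-type and G325E.

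JUN carried peaks along most of its leader in both samples transfected with DDX3X and close to the start codon alone in vector. JUN (ENSG00000177606, chr1:59246463-59249719, minus strand, 1 exon) has a 5′-UTR of 977 nt and 331 codons. The vector list put 15 peaks on JUN, the wild-type list 23 and the G325E list 22. Of these, 2, 12 and 13 lay in the 5′-UTR class, 10, 7 and 8 in the coding sequence and 3, 4 and 1 in the 3′-UTR, beyond which 4, 1 and 0 numbers were skipped. The 5′-UTR share was 13.3% (3.74 to 37.9%) for vector, 52.2% (33.0 to 70.8%) for wild-type and 59.1% (38.7 to 76.7%) for G325E. Peak numbers rested on how stretches were merged, so the bases under a peak were counted as well. The leader had 72 nt (7.37%) under a peak in vector, 742 nt (75.9%) with wild-type DDX3X and 689 nt (70.5%) with G325E.

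The added leader coverage lay far from the start codon. Within 100 nt of the start codon, the lists covered 72, 76 and 59 nt in the same order. Farther out, vector covered 0 of 877 nt, wild-type 666 nt (75.9%) and G325E 630 nt (71.8%). The outermost covered base lay 955 nt before the start codon in wild-type and 962 nt in G325E, close to the cap, against 100 nt in vector. No peak number was skipped on the 5′ side of JUN in any list. In the coding sequence, the vector list covered 74.9% of bases, the wild-type list 81.1% and the G325E list 75.8%. The 3 samples were thus close there, while in the leader vector alone stood apart. Each of the 22 G325E peaks, 1 of them of no length and taken as 1 base, met a wild-type peak, and 11 met a vector peak. Over all genes, 47.3% of G325E peaks met a wild-type peak and 35.4% a vector peak. Of the leader, 641 nt were covered in both wild-type and G325E, 98 nt in wild-type alone and 48 nt in G325E alone.

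A short JUN peak lay at the start codon in all lists, and it is shown because its edges differ by a few bases. It is given on the strand of the mRNA, with the start codon in capitals.
Vector, chr1:59248720-59248742: ATGactgcaaagatggaaacgac
Wild-type, chr1:59248721-59248742: ATGactgcaaagatggaaacga
G325E, chr1:59248720-59248739: actgcaaagatggaaacgac
The vector and wild-type peaks began with the start codon, and the G325E peak began with the codon after it. A further short peak, on the strand opposite to JUN, recurred in the leader in all lists and is the outermost leader peak in vector. It is shown because it lies at the border of the empty stretch, in the orientation of the JUN mRNA.
Vector, chr1:59248823-59248842: cggggggcgcgggtgtcccc
Wild-type, chr1:59248827-59248847: ggctccggggggcgcgggtgt
G325E, chr1:59248827-59248846: gctccggggggcgcgggtgt
Leaving out peaks of the other strand, vector covered 5.32% of the JUN leader.

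JUND, a JUN family member that is present in most resting cells, had peaks in G325E only. It lies at chr19:18390504-18392432 (ENSG00000130522, minus strand, 1 exon), with a leader of 138 nt that is 89.9% G and C and 347 codons. The vector and wild-type lists gave it 0 peaks and the G325E list 13. Peak numbers ran on without a skip across JUND in vector and wild-type, so no numbered peak was missing there. A peak removed before numbering would leave no skip. A count of 0 allows up to 0.0267% of the peaks of the vector list and 0.0151% of those of the wild-type list. With a floor of 3 peaks in place of 0, the scaled peak number in G325E was 5.51-fold that of wild-type and 3.10-fold that of vector. These values carry no error for the 13 peaks, and peaks on 1 mRNA are not independent counts. Peaks in G325E with none in the other lists were found for 474 genes, 20.4% of the 2321 with a peak in G325E, and 31 genes (1.34% of the 2321) had at least 13 such peaks.

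The JUND peaks in G325E covered 132 nt of the leader (95.7%) and 528 nt of the coding sequence (50.7%), ending 792 nt after the start codon. HOMER placed 5 of the peaks in the exon class and 8 in the promoter-TSS class, and 0 in its 5′-UTR class. Of the 8, 6 were annotated to the RefSeq transcript of MIR3188, a miRNA gene that lies just upstream of JUND on the opposite strand. By position on the JUND mRNA, 2 peaks had their midpoint in the leader, 10 in the coding sequence and 1 outside the canonical transcript. JUND protein is known to start at 2 alternative sites, and the in-frame ATG codons 44 and 45 lay under a G325E peak. A peak of 123 nt within the coding sequence was on the opposite strand, and without it 38.9% of the coding bases were covered.

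JUNB (ENSG00000171223, chr19:12902300-12904129, plus strand, 1 exon), the family member known to act against JUN at many targets, had 0 peaks in every list. Its leader has 286 nt, and it has 347 codons, as many as JUND. The counts of 0 allow up to 0.0267% of the vector list, 0.0151% of the wild-type list and 0.0191% of the G325E list. The vector list skips 2 numbers in the stretch that holds JUNB, so up to 2 peaks may have been called there. The wild-type and G325E lists skip 0.

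MAF, a large Maf protein that drives lens and lymphoid differentiation, resembled JUN in its leader, with the limit that the vector and wild-type lists skip numbers along it. MAF (ENSG00000178573) lies at chr16:79627735-79634634 on the minus strand, with 2 exons, a leader of 835 nt and 403 codons. Its peaks numbered 10 with vector, 13 with wild-type and 18 with G325E, of which 1, 5 and 8 were in the 5′-UTR and 9, 8 and 10 in the coding sequence. The 5′-UTR share was 10.0% (1.79 to 40.4%), 38.5% (17.7 to 64.5%) and 44.4% (24.6 to 66.3%) in vector, wild-type and G325E. Beyond 100 nt from the start codon, vector covered 0 of 735 nt, wild-type 279 nt (38.0%) and G325E 436 nt (59.3%). Skipped numbers between its outer peaks came to 7 in vector and 5 in wild-type, with 2 more in vector and 6 more in wild-type upstream of the outermost peak. The 6 G325E peaks without a wild-type overlap all touched stretches where the wild-type list skips numbers. Against vector, 9 G325E peaks had no overlap, and 7 of them lay in such a stretch. Over all genes, 47.3% of G325E peaks met a wild-type peak and 35.4% a vector peak.

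The canonical MAF leader holds 2 upstream ATG codons, shown here because peaks covered them in wild-type and G325E. Each line gives the bases around the codon, which is in capitals.
MAF, 544 nt before the start codon, chr16:79634329-79634355, minus strand: gaggcgagaagcATGaagtgttaactc
MAF, 417 nt before the start codon, chr16:79634202-79634228, minus strand: gagcccttccttATGcaaagcgcgcag
The first opens a reading frame of 3 codons and the second one of 40 codons, both closed before the MAF start codon. All 3 bases of the second ATG were covered in wild-type and in G325E and 0 in vector. Of the 123 nt of that frame with its stop codon, vector peaks covered 0 nt, wild-type peaks 38 nt and G325E peaks 117 nt. Peak lists without heights do not show whether this frame was translated. The MAF coding sequence was covered for 28.6%, 26.6% and 56.8% in the vector, wild-type and G325E lists. A short peak just inside it recurred in every list, from 33 to 57 nt after the start codon in vector, 21 to 47 nt in wild-type and 30 to 52 nt in G325E.

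CEBPB, a regulator of acute phase, fat cell and macrophage genes, was covered along nearly its whole coding sequence in G325E and in a few spots in the other samples. CEBPB (ENSG00000172216) lies at chr20:48807367-48809205, plus strand, in 1 exon with a leader of 204 nt and 345 codons. The lists gave it 10 peaks with vector, 8 with wild-type and 22 with G325E. Coding bases under a peak made up 12.9%, 11.5% and 84.3% in that order, and leader bases 27.9%, 16.2% and 83.8%. Between the outer peaks the vector list skips 7 numbers and the wild-type list 4, and on either side of them 5 and 4 more are skipped before the next peak. Of the 16 G325E peaks without a wild-type overlap, 14 lay in a stretch with skipped numbers. Against vector, 12 had no overlap, and 11 of them lay in such a stretch. Peaks without overlap were common in G325E, where 47.3% of all peaks met a wild-type peak and 35.4% a vector peak.

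Part of the CEBPB signal was on the other strand and upstream of the mRNA. The minus strand held 5, 4 and 7 of the peaks, and an antisense non-coding gene, CEBPB-AS1, overlaps there. The peaks upstream of the canonical start of the mRNA numbered 2, 4 and 7, and HOMER placed 3 of those of G325E in the promoter-TSS class. Whether these fragments came from CEBPB mRNA was not tested. CEBPB is known for 3 proteins made from in-frame start codons, the shortest of which lacks the activation domain and acts as an inhibitor. The in-frame ATG codons were codons 1, 24, 199 and 294. Codons 1 and 24 were under no peak in any list, and codons 199 and 294 were under a peak in G325E only. Numbers are skipped across codons 24 and 199 in both the vector and the wild-type list, across codon 1 in wild-type and across codon 294 in vector, and 3 more beyond the last wild-type peak, so these codons may have been under a called peak that was not kept.

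**Figure D2:**
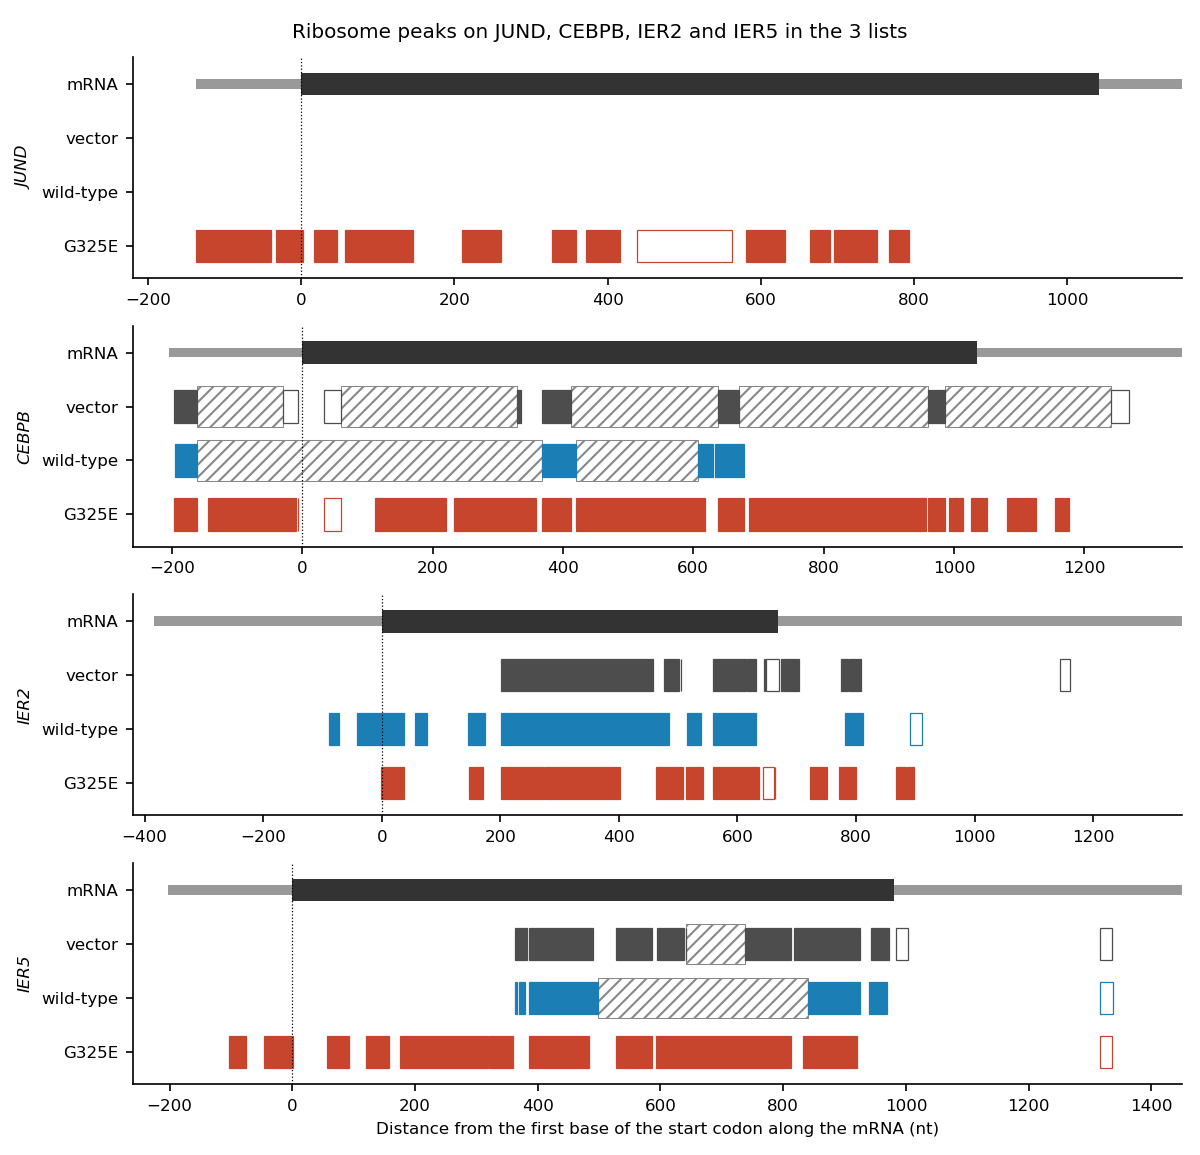
Peaks on the JUND, CEBPB, IER2 and IER5 mRNAs in the 3 lists, by distance from the first base of the start codon (nt). Filled boxes are peaks on the strand of the gene, open boxes peaks on the other strand, and hatched boxes stretches between peaks of the gene in which a list skips peak numbers. JUND is filled in G325E only, and the first 363 nt of the IER5 coding sequence hold peaks in G325E only.

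IER5, which is known to act on protein phosphatase and heat shock factor, showed its difference on the 5′ side. IER5 (ENSG00000162783) lies at chr1:181057836-181062036, plus strand, in 1 exon with a leader of 203 nt and 327 codons. Vector gave 10 peaks, wild-type 6 and G325E 12, with 0, 0 and 3 in the 5′-UTR class. The first peak began 363 nt after the start codon in both vector and wild-type, whereas in G325E peaks on the mRNA ran from 104 nt before the start codon onward. A further G325E peak, counted in the 5′-UTR class, lay upstream of the canonical transcript (chr1:181057743-181057764). No number was skipped before the first IER5 peak in any list. The leader was covered for 0%, 0% and 36.5%, and the coding sequence for 45.0%, 24.7% and 73.5%. Inside the gene 2 numbers were skipped in vector and 2 in wild-type. A short peak on the opposite strand recurred in the 3′-UTR in all lists, starting at the same base, chr1:181059355.

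IER2, an early-response nuclear protein, had its differences around the start codon. IER2 (ENSG00000160888) lies at chr19:13261225-13265725, plus strand, with 2 exons of which 1 is coding, a leader of 385 nt and 223 codons. There were 12 peaks with vector, 10 with wild-type and 13 with G325E, and its 5′-UTR class held 0, 2 and 0. Coding bases under a peak made up 56.5%, 70.0% and 64.3%. The first peak in vector began 201 nt after the start codon. In wild-type, peaks began 89 nt before the start codon on the mRNA, with 1 more in the intron, and in G325E they began 2 nt before it. A peak edge at 201 nt was shared by all 3 lists. Before the first IER2 peak, 4 numbers were skipped in wild-type and 0 in the other lists. Its 2 upstream ATG codons, 245 and 210 nt before the start codon, were under no peak in any list. A non-coding gene overlaps IER2 on the minus strand, which held 4, 1 and 2 of these peaks.

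**Figure D3:**
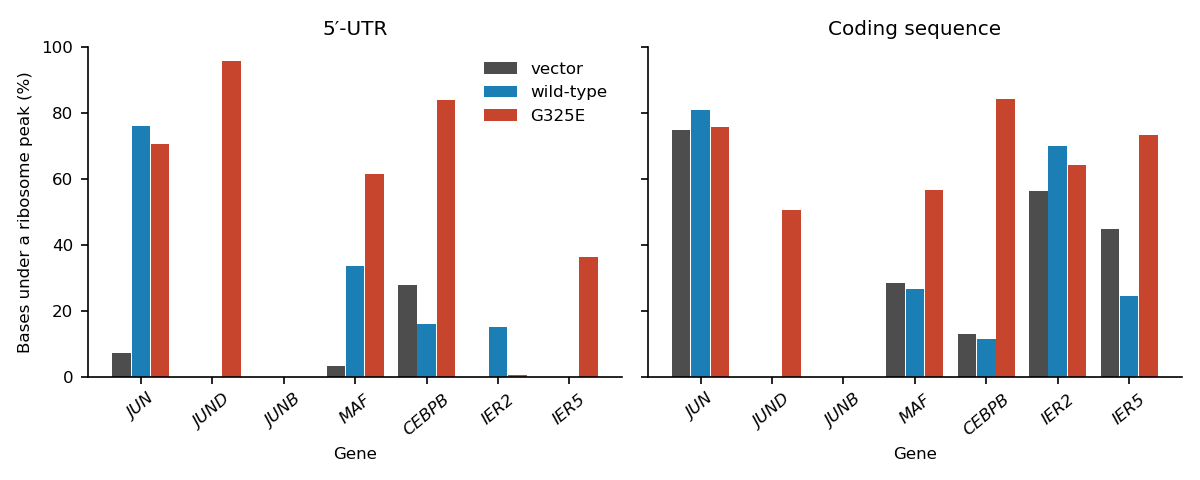
Bases of the 5′-UTR (left) and the coding sequence (right) under a ribosome peak, in percent of the canonical transcript, for each gene and list. Each bar is 1 library. The JUN leader stands high in wild-type (75.9%) and G325E (70.5%) over vector (7.37%), while CEBPB and JUND stand high in G325E.

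Across the 7 genes, 5.15% of the 3028 nt of leader were under a peak with vector, 36.9% with wild-type and 52.2% with G325E. Their coding sequences were covered for 29.3%, 28.1% and 57.3%, out of 6969 nt. The wild-type value for leaders rested on JUN, since without it 18.2% were covered. Peaks that may stand behind skipped numbers (16, 11 and 0 in the vector, wild-type and G325E lists) are not in these values. Vector and wild-type coverage may therefore be too low beside G325E, by an amount the lists do not give. Over the 5′-UTR, exon and 3′-UTR classes, the 5′-UTR class took 12.3% of peaks with vector (7 of 57, 6.08 to 23.2%), 38.6% with wild-type (22 of 57, 27.1 to 51.6%) and 34.8% with G325E (31 of 89, 25.7 to 45.2%). In all other genes it was 9.04%, 8.70% and 19.0%. The wild-type minus vector difference was 26.3 percentage points in the listed genes, 17.5 points in them without JUN, and −0.34 in all other genes. For G325E against wild-type, the differences were −3.77 points in the listed genes and 10.3 points in the others. With promoter-TSS peaks counted as 5′-UTR and TTS peaks as 3′-UTR, the difference in the listed genes turned to 1.32 points. At least 1 peak in the 5′-UTR class was present on 3 of the 5 listed genes that vector lists, on 4 of the 5 for wild-type and on 4 of the 6 for G325E, beside 15.5%, 16.7% and 27.5% of all genes with a peak. The listing used peaks in the 5′-UTR, so nothing is read from those counts or from the share differences between the listed and the other genes.

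**Figure D4:**
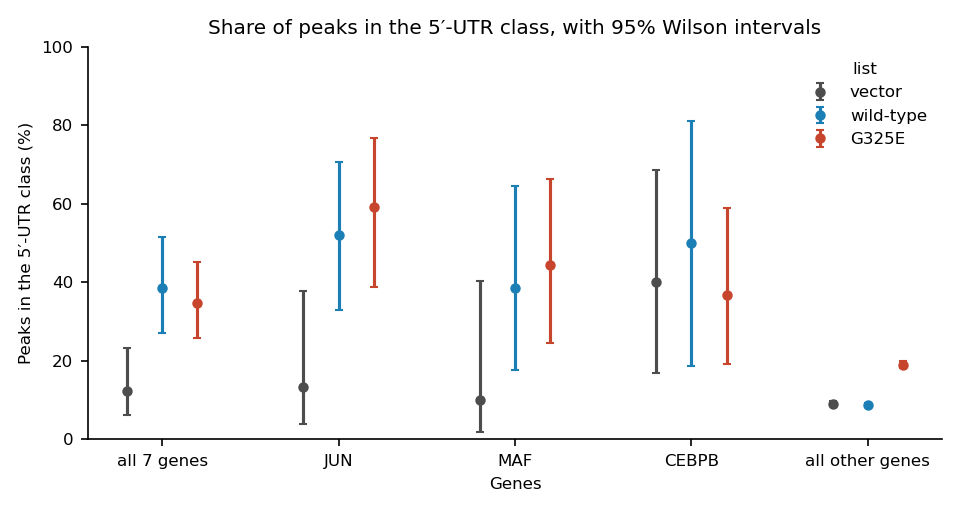
Share of peaks in the 5′-UTR class (percent of peaks in the 5′-UTR, exon and 3′-UTR classes) for the 7 genes together, for JUN, MAF and CEBPB, and for all other genes, in each list. Points are shares and bars 95% Wilson intervals, which cover counting error only. In JUN the share is 13.3% for vector, 52.2% for wild-type and 59.1% for G325E, and in all other genes 9.04%, 8.70% and 19.0%.

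Peak numbers scaled to the total of each list were then set side by side. In G325E against wild-type the 7 genes together stood at 2.12-fold, beside a median of 1.27-fold over the 1797 genes with a peak in both lists. The pooled value counts JUND, which has peaks in G325E alone, whereas the median leaves such genes out and takes genes singly. Without JUND the pooled value was 1.84-fold. CEBPB (3.49-fold) and IER5 (2.54-fold) were at least 2-fold higher, as were 20.7% of the 1797 genes. Of the listed genes, 0 were at least 2-fold lower (10.3% of the 1797). MAF stood at 1.76-fold, IER2 at 1.65-fold and JUN at 1.22-fold. With the skipped numbers counted as peaks, CEBPB stood at 2.69-fold, IER5 at 2.20-fold and the 7 genes together at 2.07-fold. In G325E against vector the listed genes together stood at 1.26-fold, or 1.09-fold without JUND, beside a median of 0.781-fold over 1445 genes. None of the 5 listed genes with peaks in both lists was 2-fold higher (11.3% of genes) or lower (20.1%). Counting skipped numbers gave 1.15-fold together and 0.889-fold for MAF. In wild-type against vector they stood at 0.593-fold, beside a median of 0.676-fold over 1942 genes. IER5 (0.338-fold), CEBPB (0.451-fold) and IER2 (0.469-fold) were at least 2-fold lower, as were 20.5% of genes, and 0 were higher (6.13%). Counting skipped numbers gave 0.557-fold together. By rank, JUN stood among the 4.50% of genes with most peaks in vector, the 1.90% in wild-type and the 1.51% in G325E.

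The peaks recurred between lists to different degrees. Of the vector peaks of these genes, 82.5% overlapped a G325E peak (70.6 to 90.2%), beside 48.1% of all vector peaks. A wild-type peak overlapped 61.4% of them (48.4 to 72.9%), below the 76.8% of all vector peaks. A G325E peak lay over 80.0% of wild-type peaks (68.2 to 88.2%), against 34.9% of all wild-type peaks, and a vector peak over 53.3% (40.9 to 65.4%), against 41.6%. In the other direction, 52.0% of G325E peaks met one of wild-type (42.3 to 61.5%), beside 47.3% of all G325E peaks, and 42.0% met one of vector (32.8 to 51.8%), beside 35.4%. The skipped numbers of the vector and wild-type lists do not enter these shares. Peak edges at the same base in all 3 lists numbered 11 in these genes, of 2287 over all peaks. Of the edges of vector peaks, 16.1% lay at the same base as a wild-type edge, beside 30.2% over all vector peaks.

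Base composition set these genes apart from most others and moved with the G325E list. Their coding sequences hold 64.5% to 73.6% G and C, beside a median of 54.8% over 2935 genes with a peak, of which 12.7% reach the lowest of the 7. The mean G and C content in 31 nt around each peak was 70.3% ± 12.9 for vector (SD, 57 peaks), 67.8% ± 12.9 for wild-type (60 peaks) and 74.7% ± 12.4 for G325E (100 peaks). Over all peaks it was 62.7%, 62.3% and 73.1%. The part of base composition in the G325E values was not tested.

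Among other single-exon coding genes, with histones and the 7 genes left out, the 5′-UTR class held 7.11% of peaks with vector (4.55 to 11.0%), 6.82% with wild-type (4.70 to 9.81%) and 8.84% with G325E (6.51 to 11.9%). In genes of more exons it held 9.47%, 9.11% and 19.98%.

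Partner and pathway genes were mostly without peaks, as were coding genes at large. Of 19019 other genes with more than 1 exon, 1585, 2379 and 1869 had a peak in the vector, wild-type and G325E lists. Of the partner genes below, 3, 6 and 4 did. Of 24 AP-1 and bZIP partner genes, 8 had a peak in any list, and FOS, FOSB and the FOSL genes had 0. CEBPA, like CEBPB an intronless C/EBP gene, held 0, 0 and 13 peaks with vector, wild-type and G325E. MAFA, a large Maf gene of 1 exon, held 0, 10 and 0, and CREB5 held 0, 9 and 0. Of all genes with a peak in G325E, 20.4% had none in the other lists. The share of genes with peaks in wild-type alone was not counted. DDIT3, the stress-induced C/EBP partner, held 8, 8 and 0 peaks, and ATF4, the main effector of the integrated stress response, 7, 9 and 5. ATF3 held 1, 2 and 6 peaks, of which 0, 0 and 3 were in the 5′-UTR class. In G325E against wild-type, 2 partner genes had a peak in both lists. ATF3 was at least 2-fold higher (6 peaks against 2), as were 20.7% of the 1797 genes with a peak in both lists. ATF4 was not, with 5 peaks against 9.

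Of 31 other early-response genes, 8 had a peak in any list, with 4, 7 and 4 in the vector, wild-type and G325E lists. SRF, the factor that drives serum-induced transcription of this class, held 0, 0 and 15 peaks, with 5 of those in the 5′-UTR class. ID4 held 11, 11 and 14, ID2 held 7, 7 and 10, and RHOB, an intronless GTPase gene, held 7, 5 and 10. ID1 held 0, 6 and 0, ID3 held 0, 7 and 0, and KLF6 held 0, 5 and 0. As above, 20.4% of all genes with a peak in G325E had none in the other lists, and the like share for wild-type was not counted. Of 5 genes of the kinase route that phosphorylates JUN, only MAPK9 had peaks, with 5, 3 and 7. Among the 45 other genes with at least 10 peaks of the 3 classes in every list, those closest to the pooled pattern of the 7 genes over the 9 class shares (Euclidean distance between shares as fractions) were FAM84B (distance 0.316), RPP25 (0.395), PGRMC2 (0.456), P4HB (0.550) and ALDOA (0.566). On the same scale MAF stood at 0.366 and JUN at 0.392. MAF and JUN are themselves part of the pooled pattern and the other genes are not, so the distances are not like for like.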

How the data were processed

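Ribosome peak lists of 3 HEK293T samples, with 1 library per construct, were analysed. The values are not scores or counts: per the file headers and the study's methods, the authors deposited positions and annotation of peaks, made from reads trimmed with cutadapt and aligned with BWA 0.5.5 to NCBI Build 37 with RefSeq, junction and AceView sequences. Duplicates were removed, stretches with Bambino coverage of at least 10 were called in each library, and peaks were merged, reviewed by eye and annotated with HOMER (version not given in the sources used here).

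Here peaks were placed on GENCODE 44 canonical transcripts in GRCh37 coordinates, which the files use, and bases under a peak were counted. Peak numbers were scaled to the list total, and a gene was called at 2-fold with at least 1 peak in both lists. Overlap meant at least 1 bp. A floor of 3 peaks stood for 0. The smallest distance over class shares named the similar genes. Scripts ran in Python 3.11.15 with numpy 2.4.6, pandas 2.3.3 and matplotlib 3.10.9, and were tried on simulated peaks. The genes, lists and settings were chosen with earlier results of these data known. The values of 1 partner gene are not reported here.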

Additional observations from a re-analysis of the deposited data

Results flagged for a closer look

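Peaks of the listed genes in the promoter-TSS class, which enters none of the 5′-UTR shares, numbered 11 for G325E, 2 for wild-type and 0 for vector. They comprised 8 peaks of JUND and 3 of CEBPB in G325E, and 2 of CEBPB in wild-type. They came to attention as a signal in a class outside the 3 compared, above the level in vector.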

How the results depend on the processing

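With 1 library per construct no replicate could be left out, and each gene was left out in its place. No paired analysis was possible because every group held 1 library and no test was run. Over 27 results, 153 values under other settings kept and 12 moved, and on leaving out a gene 158 kept and 31 moved. Kept meant within the counting interval of the main value, or for counts of genes within 1.5-fold of it. These intervals take peaks or bases as independent and are no spread between libraries. Some values could not move. JUNB has 0 peaks, so leaving it out could change coverage alone. Counting peaks by gene name alone moved 0 peaks of the listed genes. The 5′-UTR share difference between G325E and wild-type changed sign, from −3.77 to 1.32 points, with promoter-TSS peaks counted as 5′-UTR and TTS peaks as 3′-UTR, a move within its interval. With the median of all genes as the scale, the wild-type over vector ratio became 0.877, 1 gene was lower in wild-type and 1 was higher in G325E against vector. At 1.5-fold, 4 genes were higher in G325E against wild-type and 1 against vector, and counting peaks on the strand of the gene also gave 1 against vector. On that strand alone, leaders were covered for 3.73% in vector and coding sequences for 54.9% in G325E. With equal numbers of the longest peaks, 70.2% of vector peaks overlapped G325E, wild-type leaders were covered for 34.1% and coding sequences for 26.2% in wild-type and 55.8% in G325E.

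Leaving out a gene gave 5′-UTR share differences of −6.77 to −0.88 points (G325E minus wild-type), 14.96 to 27.9 (G325E minus vector) and 17.5 to 30.9 (wild-type minus vector). Leader coverage ran from 3.51 to 5.90% in vector, 18.2 to 40.7% in wild-type and 43.5 to 59.7% in G325E, and coding coverage from 21.7 to 34.5%, 19.3 to 33.0% and 52.6 to 67.3%. Without JUN, the lowest values of the last 2 differences and of wild-type leader coverage were reached. The share of G325E peaks overlapping wild-type ran from 38.5 to 59.8%. The counts ran from 1 to 2 (higher, G325E against wild-type) and from 2 to 3 (lower, wild-type against vector). With skipped numbers placed in or out of leaders, as chosen after seeing the data, the wild-type minus vector difference was 28.8 or 24.3 points. These values are not bounds. The numbers were placed the same way in both lists, and those skipped outside the outer peaks of a gene were left out. The lists hold no depth, the mapped read numbers were not used, and 1 library per construct gives no spread between cultures.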
